A study of Mus musculus with 6 samples.

Results

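The cytosolic ribosomal protein genes were examined in RAW 264.7 cells, a mouse macrophage line, kept for 3 days on zinc-based metals under a calcium phosphate (CaP) coating. They were taken as every protein-coding gene of the count table whose name begins with Rpl or Rps and a digit, together with Rplp0, Rplp1, Rplp2 and Rpsa and without the S6 kinase genes, which gave 94 of 54532 genes. Large-subunit names made up 59 of the 94 and small-subunit names 35. By name, 77 genes were standard subunits of the ribosome (46 large, 31 small), 9 were paralogs or proteins that only carry the name, such as Rpl22l1, Rps27l and Rps19bp1, and 8 had a pseudogene name although the table lists them as protein-coding. The metal was CaP Zn0.8Mn0.1Li, zinc to which manganese and lithium were added, CaP Zn0.8Mn, zinc with manganese alone, or CaP Zn, zinc with neither, all 3 coated with CaP, and each metal had 2 libraries. The amounts of the metals are known only from these names, and no uncoated metal or culture without metal is among the libraries. Cells were taken up in TRIzol, and their polyadenylated RNA was prepared with an Illumina TruSeq kit. Nothing in the labels states whether the 2 libraries of a metal came from separate cultures, so the tests measure the spread between libraries, which may be technical.

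A ribosome joins a large subunit, which forms peptide bonds, with a small subunit, which reads the messenger RNA, and each subunit holds ribosomal RNA and a fixed set of proteins. The proteins are needed mostly in equal numbers, and their genes are among the most strongly transcribed of a growing cell. Most of their messengers begin with a run of pyrimidines, the 5′ terminal oligopyrimidine (TOP) motif, through which mTORC1 and LARP1 control their translation and stability. In macrophages, changes in ribosome supply accompany growth, differentiation and activation.

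Library totals lay between 14944070 and 17709290 counts, and 13156 genes passed the filter on low counts. The libraries had the RNA of macrophages. All 12 macrophage markers on the list, among them Adgre1, Csf1r and Cd68, were detected, with a summed level of 15967 and 16561 CPM (read counts relative to library size, which was scaled with TMM factors) on CaP Zn0.8Mn0.1Li, 11091 and 17433 CPM on CaP Zn0.8Mn, and 11634 and 14917 CPM on CaP Zn. The markers did not shift together in CaP Zn0.8Mn replicate 1: Csf1r had 1595 CPM in CaP Zn0.8Mn replicate 1, against 318 to 373 CPM in the other 5, Mpeg1 1296 CPM in CaP Zn0.8Mn replicate 1, against 187 to 259 CPM in the other 5 and Lyz2, the main part of the sum, 5851 CPM in CaP Zn0.8Mn replicate 1, against 9173 to 14534 CPM in the other 5. All 4 epithelial markers were at 0 counts, as were 4 of 5 fibroblast, 2 of 3 T cell and 2 of 3 B cell markers, and the 4 osteoblast markers together read 7.45 to 17.4 CPM. The library CaP Zn0.8Mn replicate 1 was unlike the other 5. Genes of the mitochondrial chromosome took 7.88% of its counts, against 1.82 to 2.15% in the others, and the ribosomal protein genes were lower in it than in the rest. Results that rest on it are therefore given with and without it.

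Of the 94 genes, 88 passed the filter, 53 with large-subunit and 35 with small-subunit names, and all 77 standard subunits were among them. The 6 others were near or at 0. Rpl10l, Rpl39l, Rpl36-ps4 and Rpl13a-ps1 had 0 counts in all 6 libraries, which allows up to 0.169 to 0.201 CPM at 3 counts per library, for counting error only. Rpl9-ps1 had 1 count in all. Rpl3l, the paralog of Rpl3 known from muscle, had 2 and 1 counts on CaP Zn0.8Mn0.1Li, 2 and 1 counts on CaP Zn0.8Mn, and 6 and 1 counts on CaP Zn. Rpl10l and Rpl39l, which are known from the male germ line, were thus below detection in these cells at this depth, beside 809.6 FPKM of Rpl10 and 395 FPKM of Rpl39 on average.

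Levels were compared between genes as FPKM, the deposited counts per length and library size. Taking each gene's mean over the 6 libraries, the standard subunits had a median level of 572 FPKM, 498 FPKM in the large and 722 FPKM in the small subunit, beside a median of 5.94 FPKM over all 13156 tested genes. Of the 77, 15 reached 1000 FPKM and 67 reached 100 FPKM. Rplp1 (ENSMUSG00000007892, chromosome 9, 61913284 to 61914542, minus strand, in GRCm38 and GENCODE M21 as for all positions of genes here), an acidic protein of the stalk that recruits elongation factors, was the most abundant, with 5007 and 4674 FPKM on CaP Zn0.8Mn0.1Li, 1441 and 4875 FPKM on CaP Zn0.8Mn, and 4133 and 4848 FPKM on CaP Zn. It was lowest in CaP Zn0.8Mn replicate 1 and within 1.3-fold elsewhere. Rpl36 of the large subunit read 2976 and 2968 FPKM on CaP Zn0.8Mn0.1Li, 561 and 2962 FPKM on CaP Zn0.8Mn, and 2480.0 and 3064 FPKM on CaP Zn. The small-subunit gene Rps3a1 read 2108 and 2013 FPKM on CaP Zn0.8Mn0.1Li, 946 and 2212 FPKM on CaP Zn0.8Mn, and 1860.5 and 2142 FPKM on CaP Zn. These 3 genes kept the same order in every library but CaP Zn0.8Mn replicate 1, in which Rps3a1 lay above Rpl36. At the low end were Rpl24, Rpl29 and Rpl21, with means of 1.15, 0.798 and 0.610 FPKM, which are described with their copies further on. The lengths used for FPKM are those of whole genes with all their exons, 4483 bases for Rps3, of which 729 code, so that levels per length carry the annotation of untranslated and retained sequence as well.

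**Figure D1:**
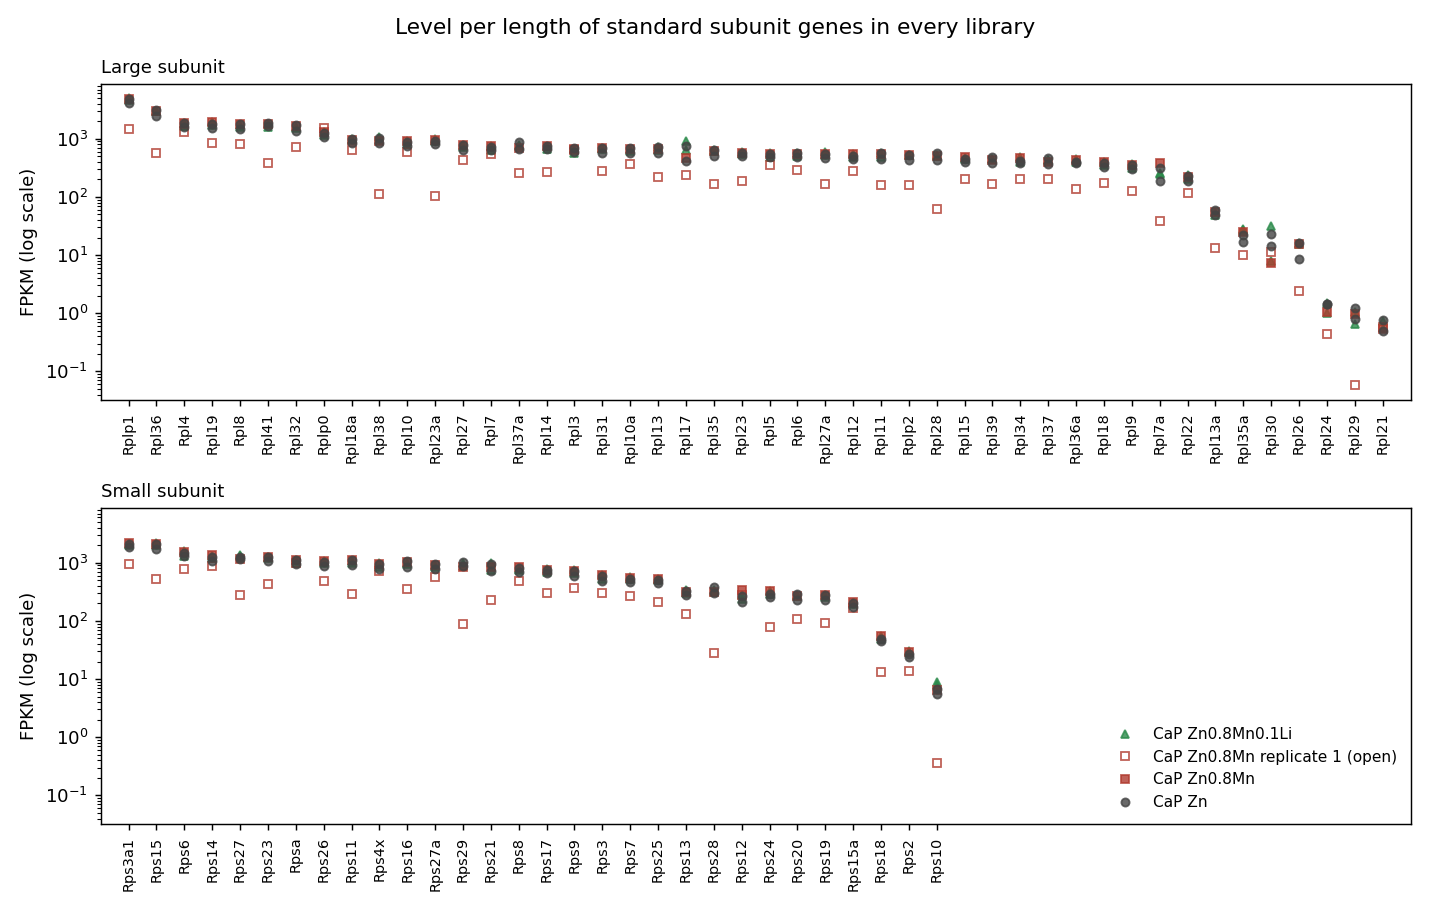
FPKM on a log scale for standard subunit genes (large subunit above, small subunit below), ordered by mean level, with 1 symbol per library; open squares are CaP Zn0.8Mn replicate 1. Most genes lie above 100 FPKM, the open squares lie below the other symbols for most genes, and 8 genes, 6 of the large subunit with Rpl21 lowest and Rps2 and Rps10 of the small, lie under 30 FPKM.

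Summed, the share of all counts that fell on the 94 genes was 9.76% and 9.26% in the CaP Zn0.8Mn0.1Li libraries, 5.10% and 9.67% in the CaP Zn0.8Mn libraries, and 8.84% and 9.79% in the CaP Zn libraries. CaP Zn0.8Mn replicate 1 was low and the other 5 libraries lay close together, with CaP Zn replicate 1 the lowest of those 5. Group means were 9.51 ± 0.354% for CaP Zn0.8Mn0.1Li, 7.38 ± 3.23% for CaP Zn0.8Mn and 9.32 ± 0.668% for CaP Zn (SD, n = 2 each), and the SD on CaP Zn0.8Mn was wider than any difference between means. A lower share in bulk RNA cannot tell fewer cells of a kind from less of this RNA per cell. Large-subunit genes took 5.60% and 5.32% in the CaP Zn0.8Mn0.1Li libraries, 2.86% and 5.52% in the CaP Zn0.8Mn libraries, and 5.07% and 5.64% in the CaP Zn libraries. Small-subunit genes took 4.16% and 3.93% in the CaP Zn0.8Mn0.1Li libraries, 2.24% and 4.15% in the CaP Zn0.8Mn libraries, and 3.77% and 4.15% in the CaP Zn libraries. In CPM the 2 subunits kept nearly the same proportion: the ratio of summed large to summed small CPM was 1.35 and 1.35 for CaP Zn0.8Mn0.1Li, 1.28 and 1.33 for CaP Zn0.8Mn, and 1.35 and 1.36 for CaP Zn. The lowest ratio was that of CaP Zn0.8Mn replicate 1, and the other 5 spanned 1.33 to 1.36. From summed FPKM the ratio stood farther apart, at 1.28 in CaP Zn0.8Mn replicate 1 and 1.43 to 1.48 in the other 5. No test was run on these sums.

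In CaP Zn0.8Mn replicate 1, 83 of the 88 tested genes lay below the mean of the other 5 libraries (log2 CPM with 0.5 added), and 56 lay over 2-fold below it, beside 14.6% of all tested genes over 2-fold below and 13.3% over 2-fold above. None of the 88 lay over 2-fold above. The median difference was -1.22 on the log2 scale, against 0.0049 for all genes. For 78 of the 88, this library was the lowest of the 6, which held for 41.9% of all tested genes. Large- and small-subunit names both had a median of -1.22, with an SD between genes of 0.78 for the large and 0.97 for the small subunit. No other library had more than 1 of the 88 over 2-fold below the rest. CaP Zn0.8Mn replicate 2 did not share the shift: it lay above the mean of the others, which includes CaP Zn0.8Mn replicate 1, for 82 of the 88. A difference of 1 library carries no test of the metal.

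**Figure D2:**
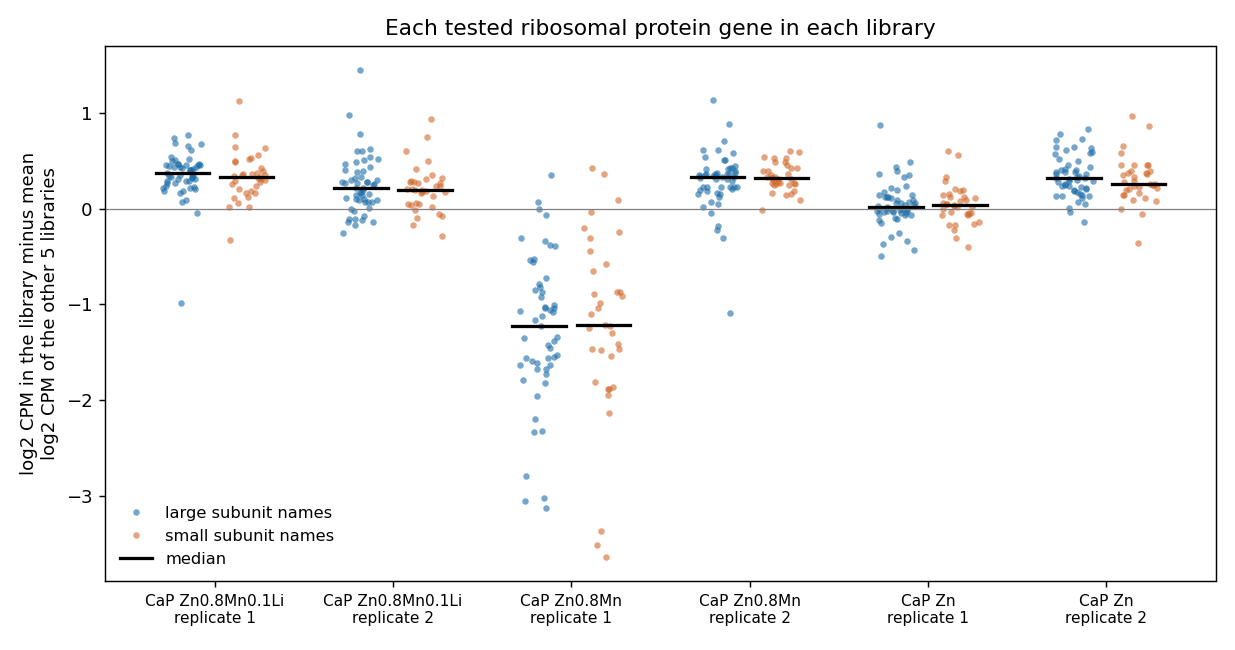
Each point is 1 of the 88 tested ribosomal protein genes in 1 library, as log2 CPM minus the mean log2 CPM of the other 5 libraries; blue points have large-subunit and orange points small-subunit names, and black bars are medians. Both medians lie at -1.22 in CaP Zn0.8Mn replicate 1 and between 0.019 and 0.37 in the other 5, whose means include that library.

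The genes did not shift evenly in that library. Rps28, a small protein near the mRNA exit of the small subunit, read 463 and 492 CPM on CaP Zn0.8Mn0.1Li, 41.4 and 453 CPM on CaP Zn0.8Mn, and 442 and 559 CPM on CaP Zn. Its level in CaP Zn0.8Mn replicate 1 was -3.52 log2 units from the mean of the rest, and the other 5 libraries lay within 1.3-fold of each other. Rps29 (ENSMUSG00000034892, chromosome 12, 69157722 to 69159186, minus strand), a zinc-binding protein of the small-subunit head, read 679 and 616 CPM on CaP Zn0.8Mn0.1Li, 61.9 and 593 CPM on CaP Zn0.8Mn, and 618 and 719.8 CPM on CaP Zn. Rpl38 of the large subunit, which in mouse embryos is known for its part in translating Hox messengers, read 522 and 576 CPM on CaP Zn0.8Mn0.1Li, 62.3 and 501 CPM on CaP Zn0.8Mn, and 459.7 and 557 CPM on CaP Zn. In each of these 3 genes CaP Zn0.8Mn replicate 1 was alone far below the others. Rpl23a, at the exit of the peptide tunnel, had 88.3 CPM in CaP Zn0.8Mn replicate 1, against 693 to 842 CPM in the other 5, and Rpl28 had 115 CPM in CaP Zn0.8Mn replicate 1, against 798 to 1037 CPM in the other 5. Rps10, at the mRNA entry, had 0.857 CPM in CaP Zn0.8Mn replicate 1, against 13.0 to 20.7 CPM in the other 5.

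Other subunits, counted as single genes, held their level or lay slightly higher. Rplp0, the base of the stalk, read 2198 and 1951 CPM on CaP Zn0.8Mn0.1Li, 2587 and 2138 CPM on CaP Zn0.8Mn, and 1786 and 2120.0 CPM on CaP Zn. It was highest in CaP Zn0.8Mn replicate 1, 0.35 log2 units above the mean of the rest. Rplp0 carried 52.3% of the counts of its copies, and summed with them it had 3697 CPM in CaP Zn0.8Mn replicate 1, against 3619 to 4444 CPM in the other 5, -0.15 log2 units from the mean of the rest, so that the direction turned. Its stalk partners lay lower either way, Rplp1 with 736 CPM in CaP Zn0.8Mn replicate 1, against 2084 to 2511 CPM in the other 5 and Rplp2 with 346 CPM in CaP Zn0.8Mn replicate 1, against 915 to 1109.7 CPM in the other 5. Rpl12, which sits at the stalk base with Rplp0, had 1034 CPM in CaP Zn0.8Mn replicate 1, against 1627 to 1972 CPM in the other 5. Rpsa, the small-subunit protein also known as the laminin receptor precursor, read 3589.7 and 3149 CPM on CaP Zn0.8Mn0.1Li, 3273 and 3523 CPM on CaP Zn0.8Mn, and 3019.8 and 3518 CPM on CaP Zn, and its libraries overlapped between all groups. Rpl3, next to the peptidyl transferase centre, had 2117 CPM in CaP Zn0.8Mn replicate 1, against 1843 to 2178 CPM in the other 5. Summed over copies, Rpl3 was lowest in this library, with 2772 CPM in CaP Zn0.8Mn replicate 1, against 3041 to 3584 CPM in the other 5. Rps12 had 574 CPM in CaP Zn0.8Mn replicate 1, against 432 to 696 CPM in the other 5, inside the range of the others.

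The remaining genes named by role lay between these ends. The 5S RNP, in which Rpl5 and Rpl11 carry the 5S RNA and can bind the p53 regulator MDM2, was split: Rpl5 had 1422 CPM in CaP Zn0.8Mn replicate 1, against 1882 to 2204 CPM in the other 5, and Rpl11 had 451 CPM in CaP Zn0.8Mn replicate 1, against 1201 to 1546 CPM in the other 5. Proteins of the small subunit likewise lay at different distances. Rps6, the target of the S6 kinases, had 1249 CPM in CaP Zn0.8Mn replicate 1, against 2087 to 2491 CPM in the other 5. Rps3 at the mRNA entry, which also has a known role in DNA repair, had 1387 CPM in CaP Zn0.8Mn replicate 1, against 2208 to 2772 CPM in the other 5, and the X-linked Rps4x had 1206 CPM in CaP Zn0.8Mn replicate 1, against 1310.4 to 1618 CPM in the other 5. Rps19, the gene most often mutated in Diamond-Blackfan anaemia, had 450.2 CPM in CaP Zn0.8Mn replicate 1, against 1073 to 1323 CPM in the other 5. Of these 4, Rps19 lay farthest below the rest and Rps4x nearest. Rpl10, the late-joining protein at the tRNA site, had 1220.4 CPM in CaP Zn0.8Mn replicate 1, against 1545 to 1904 CPM in the other 5, and Rpl22 had 346 CPM in CaP Zn0.8Mn replicate 1, against 559 to 693 CPM in the other 5. Rps27a, made as a fusion with ubiquitin, had 1161 CPM in CaP Zn0.8Mn replicate 1, against 1585 to 1866 CPM in the other 5. Rpl36a, a protein of the E site, had 231 CPM in CaP Zn0.8Mn replicate 1, against 629 to 746 CPM in the other 5, and Rpl39 in the exit tunnel had 249 CPM in CaP Zn0.8Mn replicate 1, against 560.4 to 688 CPM in the other 5. In each of these genes CaP Zn0.8Mn replicate 1 was the lowest library, and the log2 distance from the mean of the rest ran from -0.31 for Rps4x to -1.64 for Rpl11.

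The starts of these messengers are shown next for genes at both ends of the shift. The windows give, for the 3 standard subunits of at least 20 CPM and a single listed start that lay lowest in CaP Zn0.8Mn replicate 1 and the 3 that lay highest, 10 bases before and 20 bases from the start site on (RefSeq, GRCm38.p6), with the longest unbroken run of C and T in capitals.
Rps28, chr17:33824543-33824572, minus strand: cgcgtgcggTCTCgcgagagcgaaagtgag
Rpl38, chr11:114668570-114668599, plus strand: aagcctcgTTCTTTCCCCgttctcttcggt
Rpl28, chr7:4792955-4792984, plus strand: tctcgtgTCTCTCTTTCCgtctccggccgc
Rpsa, chr9:120127756-120127785, plus strand: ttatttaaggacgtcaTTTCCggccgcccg
Rps12, chr10:23787190-23787219, minus strand: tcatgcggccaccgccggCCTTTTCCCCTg
Rplp0, chr5:115559457-115559486, plus strand: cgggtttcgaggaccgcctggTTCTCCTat
The runs were 4, 10 and 11 bases long in Rps28, Rpl38 and Rpl28, and 5, 11 and 7 bases long in Rpsa, Rps12 and Rplp0. Run length was not compared with the shift over all genes. Of the 88 genes, 63 matched the table of starts by symbol, with 74 starts. A run of 8 or more C or T on the transcribed strand within 25 bases of the start was found at 33 of them (44.6%), against 19.7% of all 32851 starts in the table, and the median longest run was 7 against 5 bases. In the 300 bases around the start, the letters CCGGAAG on either strand, which belong to the ETS family motif and whose reverse strand reads CTTCCGG and can overlap a pyrimidine run, were found at 26 starts (35.1%), against 8.86% of all starts. TATAAA on either strand was found at 7 (9.46%), against 13.6%. These are matches of letters in windows of fixed length, and no binding was measured.

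The shift was also set beside coding length. Rpl41, whose coding sequence is shown here because it is the shortest of the set at 75 bases before the stop codon, lies on chromosome 10, 128548114 to 128549305, minus strand (GRCm38).
Rpl41: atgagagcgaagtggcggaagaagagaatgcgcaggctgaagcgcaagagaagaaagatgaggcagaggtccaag
It read 1889 and 2133 CPM on CaP Zn0.8Mn0.1Li, 448 and 2136 CPM on CaP Zn0.8Mn, and 1969 and 2155 CPM on CaP Zn, -2.19 log2 units from the mean of the rest in CaP Zn0.8Mn replicate 1. Among genes of at least 20 CPM, the 11 of up to 300 coding bases had a median difference of -1.86 in that library, and 10 of them lay over 2-fold below. The 29 of over 300 and up to 450 bases had -1.41, the 16 of over 450 and up to 600 bases -1.15, the 20 of over 600 and up to 900 bases -0.86, and the 3 of over 900 and up to 1500 bases, Rplp0, Rpl3 and Rpl4, 0.067. Summed over copies these 3 lay below the rest, at -0.15, -0.27 and -0.40 log2 units. The order of the first 4 classes does not rest on the last, which holds 3 genes. Other genes followed the same order of classes, with -1.70 for 145 genes, -1.12 for 300, -0.60 for 454, -0.45 for 905 and -0.15 for 1900, and with 0.15 for 2215 genes of over 1500 and up to 3000 bases. In the 4 classes up to 900 bases, the ribosomal protein genes lay below the other genes of the same class. Across genes, the difference correlated with the logarithm of coding length at Pearson's r = 0.474 (Spearman's rho = 0.449) over 79 ribosomal protein genes and at 0.52 (0.502) over 7013 others. Over the same 79 genes r was 0.135 (rho = 0.352) with mean CPM and -0.219 (rho = -0.207) with the GC content of the coding sequence. Over the 72 standard subunits among them, r was 0.543 (rho = 0.511) with coding length and 0.296 (rho = 0.483) with mean CPM. By rank, the 2 were thus close there. These points share the same library and are not independent replicates. In each of the other 5 libraries r was negative, between -0.504 and -0.185 over the ribosomal protein genes, and those differences contain CaP Zn0.8Mn replicate 1 in their mean. The mitochondrial share of counts was also high in this library, as given above. Fitted without those genes, the median log2 fold change for CaP Zn0.8Mn over CaP Zn was -0.3747, against -0.375 with them. In both fits 78 of 88 ribosomal protein genes lay below 0. Any other part of that share in the shift was not tested.

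**Figure D3:**
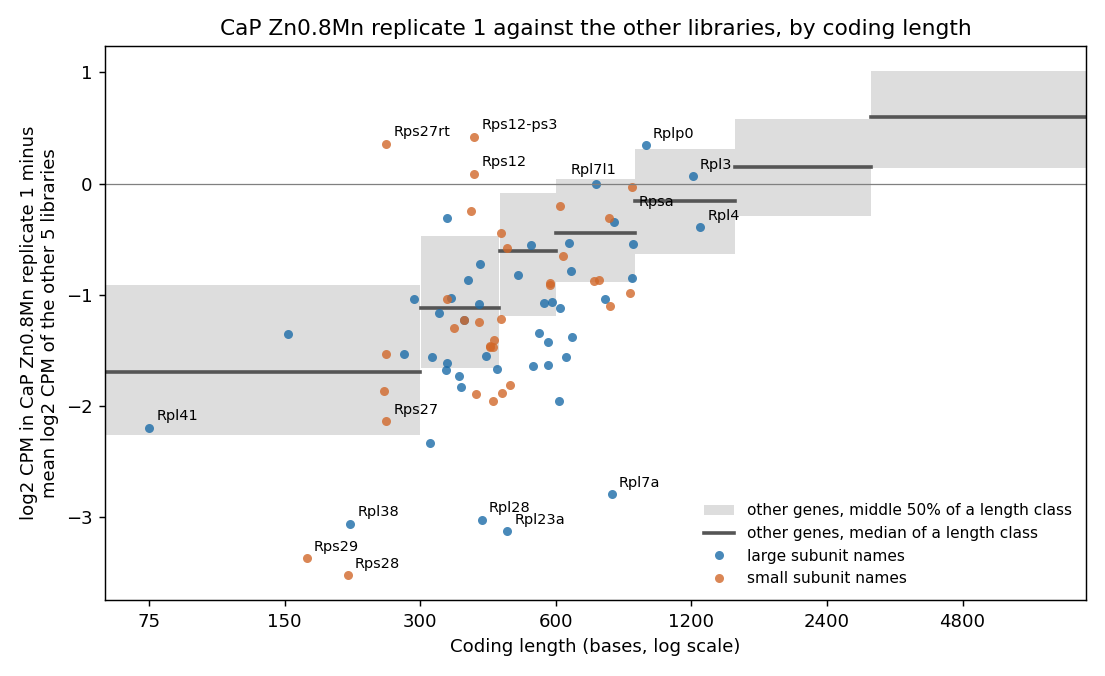
Difference of CaP Zn0.8Mn replicate 1 from the mean of the other 5 libraries (log2 CPM) against coding length in bases on a log axis, for 79 ribosomal protein genes of at least 20 CPM (blue large, orange small subunit names); grey bars and bands are the median and middle 50% of other genes in length classes. The short genes Rps28 and Rps29 lie at -3.52 and -3.37, and the long Rplp0, Rpl3 and Rpl4 lie between -0.39 and 0.35 as single genes, and between -0.40 and -0.15 summed over copies (not drawn).

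Single genes departed from the order of lengths in both directions, and were picked here for doing so. Rps15a, a small-subunit protein of 390 coding bases, had 1051 CPM in CaP Zn0.8Mn replicate 1, against 1097 to 1346 CPM in the other 5, and Rps12, with 396 coding bases, lay inside the range of the others, as given above. Rpl7a, a large-subunit protein of 798 coding bases, had 69.7 CPM in CaP Zn0.8Mn replicate 1, against 343 to 677 CPM in the other 5. Summed over its copies Rpl7a had 113 CPM in CaP Zn0.8Mn replicate 1, against 496 to 801 CPM in the other 5, -2.49 log2 units from the mean of the rest. The sum over copies of Rps15a had 1056 CPM in CaP Zn0.8Mn replicate 1, against 1110.3 to 1368 CPM in the other 5. Genes with over 50% of their coding stretches their own also spread widely. Rps3 lay at -0.87 log2 units and Rpl8, whose tip reaches the peptidyl transferase centre, had 1115 CPM in CaP Zn0.8Mn replicate 1, against 2039.9 to 2434 CPM in the other 5. Rps15, at the decoding site, with 56.7% of its stretches its own, had 333 CPM in CaP Zn0.8Mn replicate 1, against 1099.8 to 1372 CPM in the other 5.

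Ribosomal protein genes have many processed copies in the mouse genome, and reads that fit several copies can be given to any of them; how this was done is unknown here. Of 92 genes with an annotated coding sequence, 33 had no stretch of 50 coding bases that was not also found in another transcript of the annotation, and 5 had only stretches of their own. The coding sequences of Rps27 and Rps27rt were identical over 252 bases, those of Rps12 and Rps12-ps3 over 396, and those of Rpl10 and Rpl10-ps3 over 642. Rpl9 and Rpl9-ps6 differed by a single base, G266A counted from the A of the start codon as 1. The 8 standard subunits under 30 FPKM all had copies: they carried between 0.517% (Rpl29) and 34.4% (Rpl35a) of the counts of their cluster, the gene summed with the pseudogenes and ribosomal protein genes that share a coding stretch with it. Rps2 carried 2.74%, Rpl26 1.17%, Rpl21 1.63%, Rps10 3.99%, Rpl30 7.93% and Rpl24 9.39%. Their low single levels are therefore uncertain. Summed over copies, the mean over the 6 libraries was 1733 CPM for Rps2, 1531 CPM for Rpl26 and 623 CPM for Rpl30. It was 354 CPM for Rps10, 219 CPM for Rpl35a, 176 CPM for Rpl29 and 127 CPM for Rpl21. For Rpl24 it was 12.8 CPM, so that Rpl24 stayed low with its copies as well.

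Summing over copies changed the picture for single genes and not for the set. Rpl30 (ENSMUSG00000058600, chromosome 15, 34440505 to 34443640, minus strand) alone read 23.6 and 97.9 CPM on CaP Zn0.8Mn0.1Li, 35.3 and 22.2 CPM on CaP Zn0.8Mn, and 70.1 and 43.8 CPM on CaP Zn, the widest spread between the 5 similar libraries (4.41-fold), while its cluster of 17 genes read 735 and 729 CPM on CaP Zn0.8Mn0.1Li, 209 and 715 CPM on CaP Zn0.8Mn, and 643 and 709 CPM on CaP Zn, a spread of 1.14-fold in the same 5 and lowest in CaP Zn0.8Mn replicate 1. Rpl17 alone read 506 and 717 CPM on CaP Zn0.8Mn0.1Li, 188 and 358 CPM on CaP Zn0.8Mn, and 319 and 592 CPM on CaP Zn, and its cluster 1577 and 1427 CPM on CaP Zn0.8Mn0.1Li, 1093 and 1566 CPM on CaP Zn0.8Mn, and 1347 and 1612 CPM on CaP Zn. Rps10 lay at -3.64 log2 units from the rest in CaP Zn0.8Mn replicate 1 alone and -1.21 as a cluster, with 168 CPM in CaP Zn0.8Mn replicate 1, against 321 to 411 CPM in the other 5. For Rps12, the cluster with Rps12-ps3 had 838 CPM in CaP Zn0.8Mn replicate 1, against 612 to 912 CPM in the other 5, 0.17 log2 units above the mean of the rest, the highest such value among the 80 clusters of at least 20 CPM. Of 79 single genes of at least 20 CPM, 6 (Rpl17, Rpl30, Rpl35a, Rpl7a, Rps12 and Rps27rt) spread over 1.5-fold among the 5 similar libraries, but of 80 clusters only 2 did (Rpl7a and Rpl29). The 80 clusters had a median difference of -1.24 in CaP Zn0.8Mn replicate 1, with 51 over 2-fold below the rest, and the relation to coding length had r = 0.574 (rho = 0.554) over clusters. The 13 genes with over 50% of their coding stretches their own had a median of -1.04, and 7 of them lay over 2-fold below.

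**Figure D4:**
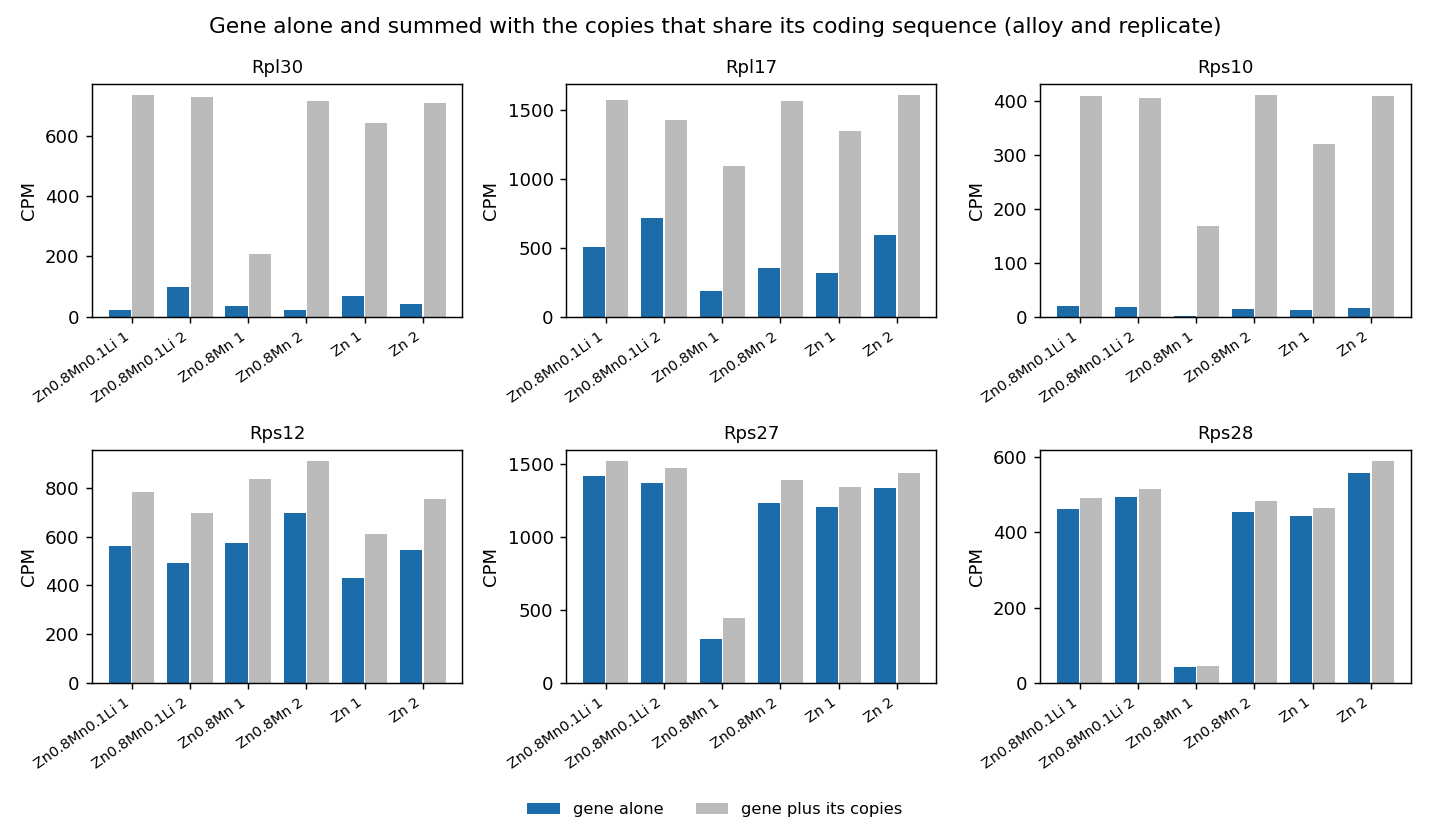
CPM in each library (metal and replicate on the x axis, CPM from 0 on the y axis) for 6 genes alone (blue) and summed with the copies that share 50-base coding stretches (grey). Rpl30 alone varies 4.41-fold among the 5 similar libraries and its cluster 1.14-fold, while Rps28 is low in CaP Zn0.8Mn replicate 1 both ways.

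Rps27 and its relatives show the same split. Rps27 and Rps27l encode closely related proteins but differ at 60 of 252 coding bases, which are in capitals here because they give reads of the 2 genes different letters. Rps27 lies on chromosome 3, 90212522 to 90213651, minus strand, and Rps27l on chromosome 9, 66946086 to 66949516, plus strand (GRCm38).
Rps27: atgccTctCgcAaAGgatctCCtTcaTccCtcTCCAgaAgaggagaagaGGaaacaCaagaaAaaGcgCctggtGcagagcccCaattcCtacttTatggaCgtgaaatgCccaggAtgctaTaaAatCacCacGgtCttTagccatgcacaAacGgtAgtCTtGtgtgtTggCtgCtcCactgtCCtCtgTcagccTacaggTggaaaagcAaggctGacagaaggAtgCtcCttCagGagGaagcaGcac
Rps27l: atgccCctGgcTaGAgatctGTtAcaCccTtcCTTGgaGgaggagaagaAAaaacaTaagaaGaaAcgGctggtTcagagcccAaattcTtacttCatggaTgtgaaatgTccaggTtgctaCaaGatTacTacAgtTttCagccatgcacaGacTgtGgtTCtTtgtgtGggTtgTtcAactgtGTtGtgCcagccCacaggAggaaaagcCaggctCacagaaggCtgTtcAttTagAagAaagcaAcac
Rps27 read 1421 and 1370.0 CPM on CaP Zn0.8Mn0.1Li, 299 and 1235 CPM on CaP Zn0.8Mn, and 1210.2 and 1338 CPM on CaP Zn. Rps27l read 261 and 244 CPM on CaP Zn0.8Mn0.1Li, 87.2 and 281 CPM on CaP Zn0.8Mn, and 239 and 245 CPM on CaP Zn. Both were lowest in CaP Zn0.8Mn replicate 1. Rps27rt, whose coding bases equal those of Rps27, read 100.1 and 102 CPM on CaP Zn0.8Mn0.1Li, 149 and 155 CPM on CaP Zn0.8Mn, and 135 and 98.2 CPM on CaP Zn, and was low in both CaP Zn0.8Mn0.1Li libraries and in CaP Zn replicate 2. Its reads cannot be told from those of Rps27 by coding sequence, and the cluster of both with 8 pseudogenes had 445 CPM in CaP Zn0.8Mn replicate 1, against 1345 to 1525 CPM in the other 5.

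Between the CaP Zn0.8Mn0.1Li and CaP Zn libraries, 0 of the 88 genes passed the threshold of an adjusted p under 0.05 (edgeR, Benjamini-Hochberg over 13156 genes), where 0% of all genes passed it, and 0 of the 88 had an unadjusted p under 0.05, beside 0.22% of all genes. DESeq2 and limma-voom also called 0 of the 88, and limma on log2(FPKM + 1) called 0 of the 86 that passed its filter, each with 0 at an unadjusted p under 0.05. Log2 fold changes were above 0 for 75 of 88, beside 50% of all genes, with a median of 0.074 that was the same for large and small subunit names. The sign of that median rested on CaP Zn replicate 1: it was -0.039 without that library and 0.20 without CaP Zn replicate 2. In 8 of the 88 both CaP Zn0.8Mn0.1Li libraries lay above both CaP Zn libraries, beside 16.7% of all genes, and in 0 both lay below, beside 16.8%. Neither share exceeded that of all genes. The 8 were Rpl22l1, Rpl27-ps3, Rpl35a, Rpl36a, Rpl9-ps6, Rps10, Rps2 and Rps27. Among genes of at least 5 CPM on average, the largest difference was that of Rpl27-ps3, with 9.65 and 8.61 CPM on CaP Zn0.8Mn0.1Li, 2.24 and 10.98 CPM on CaP Zn0.8Mn, and 4.67 and 6.58 CPM on CaP Zn, a log2 fold change of 0.70 ± 0.71 (SE; edgeR adjusted p = 1). Next came Rpl35a (ENSMUSG00000060636, chromosome 16, 33056453 to 33060189, plus strand), with 93.7 and 98.4 CPM on CaP Zn0.8Mn0.1Li, 36.5 and 89.4 CPM on CaP Zn0.8Mn, and 59.2 and 77.6 CPM on CaP Zn. Its log2 fold change was 0.49 ± 0.43 (SE; edgeR adjusted p = 1), and that of Rps10 was 0.45 ± 1.05 (SE; edgeR adjusted p = 1). The lowest were Rps27rt with -0.20 ± 0.21 (SE; edgeR adjusted p = 1), Rps28 with -0.067 ± 0.96 (SE; edgeR adjusted p = 1) and Rpl13a with -0.058 ± 0.61 (SE; edgeR adjusted p = 1).

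Leaving out CaP Zn0.8Mn replicate 1 narrowed the shared estimate of spread in this comparison without making a call. Then 5 of the 88 had an unadjusted p under 0.05, beside 5.02% of all genes, and 0 passed the adjusted threshold (DESeq2 0, limma-voom 0). Rpl35a had 0.49 ± 0.11 (SE; edgeR adjusted p = 0.423) and Rpl27-ps3 0.71 ± 0.21 (SE; edgeR adjusted p = 0.663). Rps10 had 0.46 ± 0.15 (SE; edgeR adjusted p = 0.82). The lowest stayed Rps27rt at -0.20 ± 0.12 (SE; edgeR adjusted p = 0.981), Rps28 at -0.067 ± 0.11 (SE; edgeR adjusted p = 0.988) and Rpl13a at -0.057 ± 0.10 (SE; edgeR adjusted p = 0.988). Rpl35a and Rps10 are among the genes whose single levels depend on their copies. Summed over copies, 0 of 82 clusters were called in the same 5 libraries, and 2 had an unadjusted p under 0.05, beside 5.15% of all genes.

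Between the CaP Zn0.8Mn and CaP Zn libraries, 0 of the 88 genes were called with all 6 libraries, where 0% of all genes were, and 0 had an unadjusted p under 0.05, beside 1.57% of all genes. DESeq2 and limma-voom called 0 of the 88 and gave 1 each at an unadjusted p under 0.05. Fold changes lay below 0 for 78 of 88, beside 49.5% of all genes, with a median of -0.38. Without CaP Zn0.8Mn replicate 1 the direction turned: the median was 0.11, 74 of 88 lay above 0 beside 48.2% of all genes, and 0 were called beside 0.0152% of all genes. At an unadjusted p under 0.05 there were 8 (9.09%), beside 4.33% of all genes, and DESeq2 and limma-voom called 0 in the same libraries, with 5 and 6 at that level. With that library as the only one of CaP Zn0.8Mn, in place of its partner, 71 of 88 were called, beside 59.3% of all genes (75 at an unadjusted p under 0.05, beside 63.6%), and 70 of them were lower in CaP Zn0.8Mn, beside 30.4% of all genes. That is a fit that assumes a lone library to vary like the other groups. Both CaP Zn0.8Mn libraries lay above both CaP Zn libraries for 4 of 88 (Rplp0, Rps12, Rps12-ps3 and Rps27rt), beside 12.5% of all genes, and below them for 4 (Rpl24, Rpl30, Rpl36a-ps1 and Rps29), beside 12.8%. Both shares are under those of all genes, and summed over copies the Rplp0 libraries overlapped.

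Among genes of at least 5 CPM, the lowest fold change with 6 libraries was that of Rps29, at -1.03 ± 0.93 (SE; edgeR adjusted p = 0.773). Rps28 followed at -1.02 ± 0.97 (SE; edgeR adjusted p = 0.773) and Rpl30 at -0.99 ± 0.69 (SE; edgeR adjusted p = 0.773). For Rps29 and Rps28 the error was nearly as wide as the difference, and the 2 CaP Zn0.8Mn libraries lay far apart. Without CaP Zn0.8Mn replicate 1, Rps29 had -0.17 ± 0.14 (SE; edgeR adjusted p = 0.967). The highest was Rps27rt at 0.38 ± 0.21 (SE; edgeR adjusted p = 0.773), ahead of Rps12 at 0.38 ± 0.23 (SE; edgeR adjusted p = 0.773) and Rps12-ps3 at 0.33 ± 0.20 (SE; edgeR adjusted p = 0.773). Rps12, a small-subunit protein of the head, read 563 and 494 CPM on CaP Zn0.8Mn0.1Li, 574 and 696 CPM on CaP Zn0.8Mn, and 432 and 544 CPM on CaP Zn, higher in both CaP Zn0.8Mn libraries than in either CaP Zn library. Without CaP Zn0.8Mn replicate 1 it had 0.51 ± 0.14 (SE; edgeR adjusted p = 0.967). The highest fold change in the same 5 libraries was that of Rpl27-ps3, at 0.97 ± 0.25 (SE; edgeR adjusted p = 0.817). Rpl7a had 0.57 ± 0.28 (SE; edgeR adjusted p = 0.967), Rpl17 -0.35 ± 0.56 (SE; edgeR adjusted p = 0.973) and Rpl30 -1.36 ± 1.35 (SE; edgeR adjusted p = 0.967), which turned to 0.082 when summed over its copies.

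Between the CaP Zn0.8Mn0.1Li and CaP Zn0.8Mn libraries, 0 of the 88 were called with 6 libraries, where 0% of all genes were, and 2 had an unadjusted p under 0.05 (Rpl17 and Rps27rt), beside 2.4% of all genes. DESeq2 and limma-voom called 0 as well, with 3 each at an unadjusted p under 0.05. Fold changes lay above 0 for 81 of 88, beside 49.9% of all genes, with a median of 0.49. Without CaP Zn0.8Mn replicate 1 the median was -0.035, 28 of 88 lay above 0, 0 were called beside 0.0152% of all genes, 0.0076% in each direction (DESeq2 0, limma-voom 0), and 2 had an unadjusted p under 0.05, beside 3.16% of all genes. With CaP Zn0.8Mn replicate 1 alone for its metal, 73 of 88 were called, beside 61.5% of all genes (75 at an unadjusted p under 0.05, beside 65.4%), and 71 of them were higher in CaP Zn0.8Mn0.1Li, beside 30.9%. Both CaP Zn0.8Mn0.1Li libraries lay above both CaP Zn0.8Mn libraries for 15 of 88, beside 17.1% of all genes, and below for 2 (Rps12 and Rps27rt), beside 17.5%. The share above is that of all genes. Rpl17 had 1.16 ± 0.46 (SE; edgeR adjusted p = 0.68), Rps10 1.29 ± 1.07 (SE; edgeR adjusted p = 0.68) and Rpl30 1.08 ± 0.69 (SE; edgeR adjusted p = 0.68). Rps27rt had -0.59 ± 0.21 (SE; edgeR adjusted p = 0.68) and, without CaP Zn0.8Mn replicate 1, -0.61 ± 0.15 (SE; edgeR adjusted p = 1). Rps12 had -0.26 ± 0.23 (SE; edgeR adjusted p = 0.68) and Rps12-ps3 -0.21 ± 0.20 (SE; edgeR adjusted p = 0.68). Without CaP Zn0.8Mn replicate 1 the other ends were Rpl7a at -0.58 ± 0.28 (SE; edgeR adjusted p = 1), Rps12 at -0.40 ± 0.14 (SE; edgeR adjusted p = 1), Rpl30 at 1.45 ± 1.35 (SE; edgeR adjusted p = 1), Rpl17 at 0.77 ± 0.57 (SE; edgeR adjusted p = 1) and Rps10 at 0.37 ± 0.19 (SE; edgeR adjusted p = 1). Of these, Rpl17 and Rps10 lay at -0.063 and -0.018 once summed over their copies. These comparisons share libraries, so their values for a gene are not independent.

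**Figure D5:**
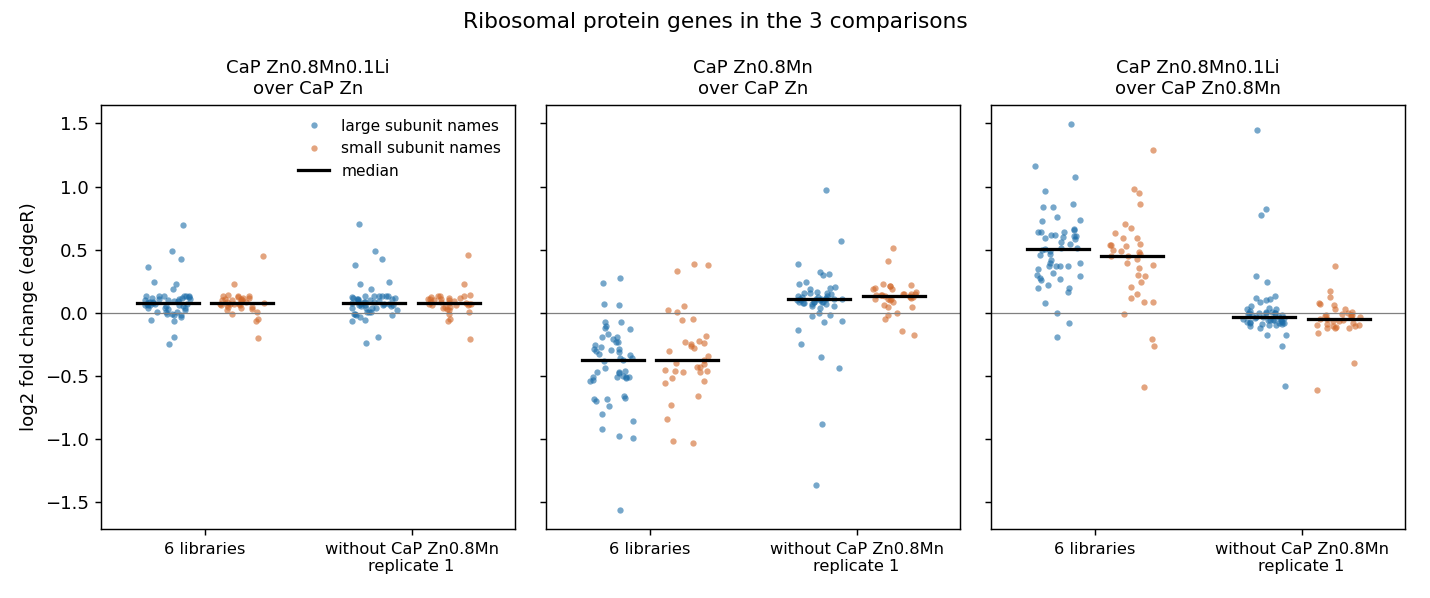
Log2 fold changes (edgeR) of the 88 tested genes in the 3 comparisons, with all 6 libraries (left of each panel) and without CaP Zn0.8Mn replicate 1 (right); blue points are large and orange points small subunit names, black bars medians. The medians in the CaP Zn0.8Mn over CaP Zn panel lie at -0.37 and -0.38 with 6 libraries and at 0.11 and 0.14 without CaP Zn0.8Mn replicate 1.

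Large- and small-subunit genes had nearly the same median in all 3 comparisons. With 6 libraries the median log2 fold change of large minus that of small subunit names was 0.048 between the CaP Zn0.8Mn0.1Li and CaP Zn0.8Mn libraries, -3.6e-05 between the CaP Zn0.8Mn0.1Li and CaP Zn libraries and 0.00033 between the CaP Zn0.8Mn and CaP Zn libraries. Without CaP Zn0.8Mn replicate 1 it was 0.011 between the CaP Zn0.8Mn0.1Li and CaP Zn0.8Mn libraries and -0.031 between the CaP Zn0.8Mn and CaP Zn libraries. Each is small beside the range of single genes, -1.56 to 0.38 between the CaP Zn0.8Mn and CaP Zn libraries with 6 libraries. Of the 9 paralogs and non-subunits, 6 were tested and 0 were called. Rpl22l1, the paralog of Rpl22, read 134 and 119.9 CPM on CaP Zn0.8Mn0.1Li, 37.5 and 143 CPM on CaP Zn0.8Mn, and 115 and 116 CPM on CaP Zn. It was lowest in CaP Zn0.8Mn replicate 1, and between the CaP Zn0.8Mn0.1Li and CaP Zn libraries it had 0.13 ± 0.58 (SE; edgeR adjusted p = 1). Rpl22, which mouse T cells need to develop, read 693 and 595 CPM on CaP Zn0.8Mn0.1Li, 346 and 651 CPM on CaP Zn0.8Mn, and 559 and 670.2 CPM on CaP Zn. Rpl7l1, a relative of Rpl7 thought to act in ribosome assembly, read 89.2 and 97.0 CPM on CaP Zn0.8Mn0.1Li, 91.4 and 95.4 CPM on CaP Zn0.8Mn, and 93.6 and 84.5 CPM on CaP Zn and varied little in all 6 libraries. Rpl36al, the relative of Rpl36a with 39 differences in 318 coding bases, read 3.38 and 1.95 CPM on CaP Zn0.8Mn0.1Li, 0.989 and 2.78 CPM on CaP Zn0.8Mn, and 2.15 and 2.36 CPM on CaP Zn. Per length it averaged 1.66 FPKM over the 6 libraries, against 364 FPKM for Rpl36a.

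The genes with a pseudogene name that were tested are 5. Rps12-ps3 read 212 and 200.2 CPM on CaP Zn0.8Mn0.1Li, 268 and 209 CPM on CaP Zn0.8Mn, and 176 and 204 CPM on CaP Zn, highest in CaP Zn0.8Mn replicate 1. Rpl9-ps6 read 146 and 140.3 CPM on CaP Zn0.8Mn0.1Li, 43.1 and 145 CPM on CaP Zn0.8Mn, and 112 and 132 CPM on CaP Zn, lowest in CaP Zn0.8Mn replicate 1, like Rpl9 with 394 CPM in CaP Zn0.8Mn replicate 1, against 954 to 1152 CPM in the other 5. Coding sequence cannot tell the counts of Rps12-ps3 from those of Rps12, and separates Rpl9-ps6 from Rpl9 by 1 base. Rpl10-ps3 had 1.32 CPM in CaP Zn0.8Mn replicate 1, against 1.47 to 2.53 CPM in the other 5 and Rpl36a-ps1 0.396 CPM in CaP Zn0.8Mn replicate 1, against 1.61 to 3.13 CPM in the other 5, and Rpl27-ps3 was given above. Rps19bp1, which is named for binding Rps19 and is no subunit, had coding stretches all its own and read 37.7 and 31.8 CPM on CaP Zn0.8Mn0.1Li, 11.9 and 33.0 CPM on CaP Zn0.8Mn, and 30.5 and 35.6 CPM on CaP Zn. It too was lowest in CaP Zn0.8Mn replicate 1.

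Other genes of the ribosome whose names fall outside the rule were also lowest in CaP Zn0.8Mn replicate 1, and none was called. Fau, which encodes a small-subunit protein fused to a ubiquitin-like protein, had 746 CPM in CaP Zn0.8Mn replicate 1, against 979.7 to 1274 CPM in the other 5. Rack1, a scaffold on the small-subunit head, had 1868 CPM in CaP Zn0.8Mn replicate 1, against 2358 to 2853 CPM in the other 5. Naca and Btf3, the nascent chain complex at the tunnel exit, had 350.2 CPM in CaP Zn0.8Mn replicate 1, against 499 to 567 CPM in the other 5 for Naca, and 387 CPM in CaP Zn0.8Mn replicate 1, against 591 to 687 CPM in the other 5 for Btf3. Their log2 distances from the mean of the rest ran from -0.50 for Rack1 to -0.72 for Btf3. Pseudogenes named after ribosomal protein genes, without the 8 that are listed as protein-coding, took 0.399% of the counts of CaP Zn0.8Mn replicate 1 and 0.57 to 0.666% elsewhere.

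The wider translation machinery gave 0 calls in all 3 comparisons by edgeR, both with 6 libraries and without CaP Zn0.8Mn replicate 1, in lists that were chosen with results of these data known. Mitochondrial ribosomal proteins, which build the separate ribosome of that organelle, came nearest to the cytosolic genes: 35 of 77 lay over 2-fold lower in CaP Zn0.8Mn replicate 1, with a median of -0.91, beside 56 of 88 and -1.22. Of all tested genes 14.6% lay over 2-fold lower there. Fold changes were above 0 for 48 of 77 between the CaP Zn0.8Mn0.1Li and CaP Zn libraries (median 0.031), beside 50% of all genes. Between the CaP Zn0.8Mn and CaP Zn libraries they were above 0 for 7 of 77 (median -0.35, or 0.072 without CaP Zn0.8Mn replicate 1), beside 50.5%. The 2 of lowest p between the CaP Zn0.8Mn and CaP Zn libraries were Mrps31 at -0.68 ± 0.31 and Mrps2 at 0.81 ± 0.43 (SE; edgeR adjusted p = 0.773 for both). Of the translation factors, here mostly those that start or extend the chain, 2 of 32 lay over 2-fold lower in CaP Zn0.8Mn replicate 1. Their median was -0.21. Fold changes were above 0 for 19 of 32 between the CaP Zn0.8Mn0.1Li and CaP Zn libraries (median 0.0047), beside 50% of all genes. Between the CaP Zn0.8Mn and CaP Zn libraries they were above 0 for 14 of 32 (median -0.038, or 0.065 without CaP Zn0.8Mn replicate 1), beside 50.5%. Their 2 genes of lowest p were Eif5 at 0.46 ± 0.26 and Eif4g2 at 0.30 ± 0.23 (SE; edgeR adjusted p = 0.773 for both).

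In CaP Zn0.8Mn replicate 1, where 14.6% of all tested genes lay over 2-fold lower, so did 10 of 36 ribosome biogenesis genes. These process and assemble the subunits in the nucleolus, and their median was -0.30. For these genes the 2 of lowest p between the CaP Zn0.8Mn and CaP Zn libraries were Ltv1 at -0.39 ± 0.17 and Heatr1 at 0.76 ± 0.39 (SE; edgeR adjusted p = 0.773 for both). Above 0 were 13 of 36 between the CaP Zn0.8Mn0.1Li and CaP Zn libraries (median -0.013), beside 50% of all genes. Between the CaP Zn0.8Mn and CaP Zn libraries 12 of 36 were above 0 (median -0.11, or 0.0011 without CaP Zn0.8Mn replicate 1), beside 50.5%. RNA polymerase I and its factors, which make the ribosomal RNA precursor, were listed together with Myc and genes of Polr2 names. Of these 17, 7 lay over 2-fold lower in CaP Zn0.8Mn replicate 1, with a median of -0.59. Myc, Polr2l and Polr2h lay at -3.39, -2.89 and -1.14. Polr1a, Polr1b, Taf1b and Taf1c lay higher there, at 0.74, 0.72, 0.40 and 1.16, and Ubtf at 0.03. The 2 of lowest p between the CaP Zn0.8Mn and CaP Zn libraries were Polr1a at 0.47 ± 0.27 and Polr1b at 0.39 ± 0.31 (SE; edgeR adjusted p = 0.773 for both). Between the CaP Zn0.8Mn and CaP Zn libraries 5 of 17 lay above 0 (median -0.29, or 0.036 without CaP Zn0.8Mn replicate 1). The mTORC1 and TOP regulators, among them Mtor, Larp1 and the S6 kinase genes, had 2 of 15 over 2-fold lower in CaP Zn0.8Mn replicate 1 and a median of -0.0089, and 7 of 15 lay above 0 between the CaP Zn0.8Mn and CaP Zn libraries (median -0.013).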

How the data were processed

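Counts per gene and FPKM values are those the authors deposited. Per the labels' protocols, polyadenylated RNA from cells in TRIzol was made into libraries with an Illumina TruSeq kit. Aligner, counter and the handling of reads that fit several genes: not given in the sources used here. Per the submitters' processing notes the build was mm9, but the gene coordinates deposited with the counts are those of GRCm38 (GENCODE M21) for 90 of the 94 genes, which is the build used for positions here.

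Counts were scaled with TMM factors, filtered with edgeR's filterByExpr to 13156 genes and tested with the robust quasi-likelihood test of edgeR 4.0.16 (R 4.3.3), with 1 mean per metal over all 6 libraries and Benjamini-Hochberg adjustment over all genes. The calling threshold was 0.05. DESeq2 1.42.0, limma-voom and limma 3.58.1 on log2(FPKM + 1) or + 0.1, other scalings and filters, sums over copies and leaving out each library were alternatives. Fits without CaP Zn0.8Mn replicate 1 used the same genes. The fits were tested on simulated counts, drawn with the spread of the 5 libraries other than CaP Zn0.8Mn replicate 1. A library that stands apart was not simulated, so this does not cover the fits that include CaP Zn0.8Mn replicate 1. Sums over copies, alone and on 5 libraries, and the renewed filter were added after the data were seen. Copies were genes sharing 50 bases of coding sequence. Sequences at starts are RefSeq's. A few single results are not reported here. Totals of 14944070 to 17709290 counts per library set the counting error. The genes and lists were chosen with earlier results of these data known. Named are, in each comparison with and without CaP Zn0.8Mn replicate 1, the 3 highest and 3 lowest fold changes among genes of at least 5 CPM, the 3 highest and 3 lowest mean FPKM, and 21 genes chosen for their roles; those at the ends of the shift in CaP Zn0.8Mn replicate 1, the copies of a named gene and counts of 8 or fewer were named after their values were seen.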

Additional observations from a re-analysis of the deposited data

How the results depend on the processing

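Few genes of any kind were called under the alternative scalings, filters, tools and sums over copies. The most were 12 of 13156, by DESeq2 without CaP Zn0.8Mn replicate 1 for CaP Zn0.8Mn0.1Li over CaP Zn. Counts of called ribosomal protein genes stayed at 0 under every such alternative, in all 3 comparisons, which does not set the genes apart. Leaving out 1 library at a time moved them over 0 to 71 for CaP Zn0.8Mn over CaP Zn and 0 to 73 for CaP Zn0.8Mn0.1Li over CaP Zn0.8Mn, the higher ends being those without CaP Zn0.8Mn replicate 2, where all genes gave 7808 and 8096 calls. The same fits moved the median log2 fold change over -1.19 to 0.11 for CaP Zn0.8Mn over CaP Zn, -0.039 to 0.20 for CaP Zn0.8Mn0.1Li over CaP Zn and -0.035 to 1.31 for CaP Zn0.8Mn0.1Li over CaP Zn0.8Mn. The log2 ratio of summed levels ranged over -0.87 to 0.12 (CaP Zn0.8Mn over CaP Zn), -0.045 to 0.19 (CaP Zn0.8Mn0.1Li over CaP Zn) and -0.046 to 0.94 (CaP Zn0.8Mn0.1Li over CaP Zn0.8Mn), and that of the large to small subunit ratio over -0.082 to -0.024 (CaP Zn0.8Mn over CaP Zn), -0.011 to 0.0040 (CaP Zn0.8Mn0.1Li over CaP Zn) and 0.020 to 0.078 (CaP Zn0.8Mn0.1Li over CaP Zn0.8Mn). Large minus small medians ranged over -0.12 to 0.050 for CaP Zn0.8Mn over CaP Zn, -0.010 to 0.0064 for CaP Zn0.8Mn0.1Li over CaP Zn and -0.013 to 0.15 for CaP Zn0.8Mn0.1Li over CaP Zn0.8Mn. For CaP Zn0.8Mn over CaP Zn they were -0.11 with limma-voom (-0.033 on the 5 libraries without CaP Zn0.8Mn replicate 1), -0.11 and -0.037 on log2(FPKM + 0.1) and log2(FPKM + 1), -0.033 over copies and -0.044 with named pseudogenes. For CaP Zn0.8Mn0.1Li over CaP Zn0.8Mn they were 0.12 with limma-voom, 0.12 and 0.063 on FPKM, 0.015 over copies and 0.071 with named pseudogenes. On the 5 libraries they were 0.011 with DESeq2, 0.011 with RLE factors, 0.011 with the filter renewed, 0.013 with library totals, 0.0086 with limma-voom, -0.0036 over copies and 0.0089 with named pseudogenes. From summed FPKM the log2 large to small ratio was 0.015 for CaP Zn0.8Mn0.1Li over CaP Zn, -0.10 for CaP Zn0.8Mn over CaP Zn and 0.11 for CaP Zn0.8Mn0.1Li over CaP Zn0.8Mn. The cause of these shifts was not tested. A fit with the replicate number as a block also called 0, with medians of 0.11 (CaP Zn0.8Mn0.1Li over CaP Zn), -0.49 (CaP Zn0.8Mn over CaP Zn) and 0.60 (CaP Zn0.8Mn0.1Li over CaP Zn0.8Mn) and large minus small medians of -0.069 (CaP Zn0.8Mn over CaP Zn) and 0.088 (CaP Zn0.8Mn0.1Li over CaP Zn0.8Mn). Nothing in the labels states that libraries of the same number were paired. The deviations of same-numbered libraries correlated at 0.263 for CaP Zn0.8Mn and CaP Zn. They correlated at -0.162 for CaP Zn0.8Mn0.1Li and CaP Zn and at -0.0947 for CaP Zn0.8Mn0.1Li and CaP Zn0.8Mn. Both values with CaP Zn0.8Mn contain its replicate 1, which stands apart, so these correlations cannot decide whether the numbers pair the libraries.

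Leaving out CaP Zn0.8Mn replicate 1 turned the balance for CaP Zn0.8Mn over CaP Zn as a whole, with 78 of 88 genes below 0 before and 74 above 0 after. Among the genes named for their fold changes with 6 libraries, 10 further values turned direction. For CaP Zn0.8Mn0.1Li over CaP Zn, leaving out 1 library moved Rps27rt over -0.41 to 0.042, Rps28 over -0.23 to 0.11 and Rpl13a over -0.20 to 0.10, with the sign turned without CaP Zn replicate 1 for Rps27rt and without CaP Zn replicate 2 for the others. For CaP Zn0.8Mn over CaP Zn, Rpl30 reached 0.082 over copies on 5 libraries. For CaP Zn0.8Mn0.1Li over CaP Zn0.8Mn, Rpl30 ranged over -0.28 to 1.76, lowest without CaP Zn0.8Mn0.1Li replicate 2, and Rps12-ps3 reached 0.0055 with library totals on 5 libraries. Over copies or with named pseudogenes on 5 libraries, Rps10 was -0.018 and -0.018, and Rpl17 -0.063 and -0.063. Depth limits the 6 genes outside the tests, which had at most 6 counts in a library.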
